A study of Mus musculus with 90 samples.

Results

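The Schlafen genes Slfn1, Slfn2, Slfn3, Slfn4, Slfn5, Slfn8 and Slfn9 were followed through long exposure to interferon γ (IFNγ) in 2 cultured mouse tumour lines: YUMM2.1, from a melanoma, and CT26, from a carcinoma of the colon. The 7 genes were the rows whose Ensembl identifier maps to these symbols, of 53697 gene rows in the count table. The assay was 3′ digital gene expression, in which a transcript is read only near its 3′ end. Chronic cultures of either line spent 1, 2 or 3 weeks in IFNγ at 50 IU/mL and were harvested either directly (0 h, no rechallenge) or 2 h or 24 h after a fresh dose. Naive cells, with no earlier exposure, received 50 IU/mL IFNγ for 2 h or 24 h at 0 weeks, and control cultures that received bovine serum albumin in place of IFNγ were collected at 0, 1, 2 and 3 weeks. Each line thus had 15 groups with 3 replicates each, and the series 90 samples; the labels call these triplicate experiments, and p-values measure the spread between such replicates. Both lines were grown in the same medium with serum, and each is a single established line, so the comparisons describe these lines and not melanoma or colon carcinoma in general.

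Schlafen proteins share an N-terminal domain that acts on RNA, and several members of the family bind or cut transfer RNA. Mouse members are grouped by length: Slfn1 and Slfn2 are short, Slfn3 and Slfn4 are intermediate, and Slfn5, Slfn8 and Slfn9 are long and carry a helicase-like C-terminal part. The family is known from lymphocytes and myeloid cells, where Slfn2 is needed for the quiescence and survival of T cells, and several members are induced by interferons. IFNγ signals through its receptor and the kinases Jak1 and Jak2 to GAS elements, whereas type I interferons also drive a complex with Stat2 and Irf9 that binds the interferon-stimulated response element (ISRE).

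All 7 genes lie in one cluster on chromosome 11, from position 82951349 to 83215154 of GRCm38, a span of 263.806 kb. Slfn5, Slfn2, Slfn1, Slfn4 and Slfn3 are on the plus strand, and Slfn9 and Slfn8 are on the minus strand. The bases just upstream of the RefSeq starts of Slfn5, Slfn8, Slfn9 and Slfn2 are shown because the first 3 hold the only ISRE cores found among the members, and because Slfn2, with the highest ratio of IFNγ to control counts in both lines among members with counts in both, had no such core. Each is given 5′ to 3′ in the direction of transcription, ends at the base before the start and comes from RefSeq on GRCm38.p6, with the ISRE core in capitals. The Slfn5 stretch is chr11:82951852-82952101 (plus strand), that of Slfn8 chr11:83020811-83021060 (minus strand), that of Slfn9 chr11:82991831-82992080 (minus strand) and that of Slfn2 chr11:83064862-83065111 (plus strand).
Slfn5: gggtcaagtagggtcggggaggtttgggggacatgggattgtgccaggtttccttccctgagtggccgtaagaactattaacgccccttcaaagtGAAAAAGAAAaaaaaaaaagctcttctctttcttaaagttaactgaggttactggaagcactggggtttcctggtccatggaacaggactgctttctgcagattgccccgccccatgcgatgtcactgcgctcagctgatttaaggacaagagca
Slfn8: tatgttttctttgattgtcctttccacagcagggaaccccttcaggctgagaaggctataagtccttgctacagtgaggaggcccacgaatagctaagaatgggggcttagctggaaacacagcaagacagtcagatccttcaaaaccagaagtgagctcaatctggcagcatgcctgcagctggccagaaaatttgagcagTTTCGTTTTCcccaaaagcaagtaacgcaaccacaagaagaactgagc
Slfn9: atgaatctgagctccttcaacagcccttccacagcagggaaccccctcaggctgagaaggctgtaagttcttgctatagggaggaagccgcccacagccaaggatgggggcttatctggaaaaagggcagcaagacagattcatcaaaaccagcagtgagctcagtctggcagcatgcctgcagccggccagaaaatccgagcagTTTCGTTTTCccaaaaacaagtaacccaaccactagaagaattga
Slfn2: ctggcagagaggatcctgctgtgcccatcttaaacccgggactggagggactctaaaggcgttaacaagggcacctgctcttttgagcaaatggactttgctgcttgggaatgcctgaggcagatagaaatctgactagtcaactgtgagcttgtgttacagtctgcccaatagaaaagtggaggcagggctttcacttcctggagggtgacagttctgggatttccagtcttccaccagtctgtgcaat

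The ISRE core was searched on both strands as a pair of GAAA blocks with any 2 bases between them, in windows from 250 bases before to 50 bases after each start. It was found near 3 of the 7 members, Slfn5, Slfn8 and Slfn9, and in 3.44% of 32851 such windows in the RefSeq promoter table. In Slfn8 it lay on the opposite strand from -48 to -39 relative to the first start, and in Slfn9 from -45 to -36, also on the opposite strand. In Slfn5 it lay on the gene's own strand from -155 to -146, beside a run of further A bases. The GAS pattern TTCNNNGAA, which reads the same on both strands, was in 0 of the 7 members' windows and in 8.3% of all windows. The upstream stretches of Slfn8 and Slfn9 were identical at 204 of 255 aligned columns (80%), and the other pairs of members with Slfn8 taken at its first start had 42.9% to 50.4%. A match to these letters is a description and not a shown binding site. For Slfn5, the RefSeq start lies inside the annotated GENCODE gene, which begins at 82951349, so an upstream start was not searched.

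**Figure D1:**
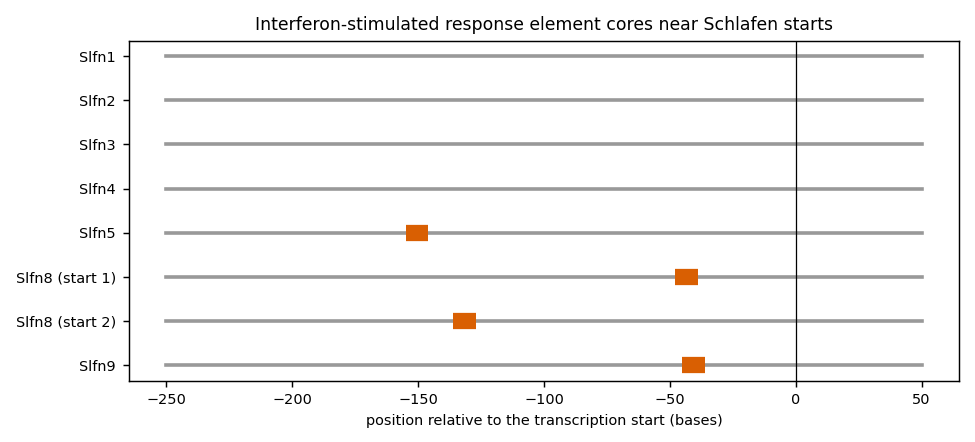
Positions of ISRE cores (orange) in windows from 250 bases before to 50 bases after the RefSeq starts of the 7 Schlafen genes, with the start at 0 on the horizontal axis in bases and 1 row per start. Slfn5, Slfn8 and Slfn9 hold a core, and for Slfn8 the same core is seen from both of its starts.

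The samples held 274719 to 3161276 counts in YUMM2.1 (median 1403265) and 295157 to 2205285 in CT26 (median 1318011), and levels are given as CPM, a gene's count per 1e6 counts of its sample. Replicate 3 of the 3-week IFNγ group without rechallenge in YUMM2.1, and replicate 3 of the 1-week and 3-week IFNγ groups without rechallenge in CT26, had under 25% of their line's median total. Totals were lower in IFNγ samples: 45933075 counts over 33 samples against 23947694 over 12 control samples in YUMM2.1, and 38444314 against 18105111 in CT26. The lines kept only some of the markers of their tissue: Sox10 made up 89.5% of the melanocytic marker counts in YUMM2.1 with Tyrp1 at 0, and Krt18 made up 99.1% of the colon epithelial marker counts in CT26 with Krt19, Epcam, Cdh1 and Vil1 at 0. Of the cells in which Schlafen genes are best known, the T cell markers Cd3e and Cd8a were at 0 in all samples of both lines. The 9 lymphoid markers summed to 0 to 8.44 CPM in YUMM2.1 (6 of 9 with any count) and 0 to 7.72 in CT26 (5 of 9). Among these 9, Lck had the most counts in both lines, at 47.2% of the list in YUMM2.1 and 54.2% in CT26. Its median was 0.375 CPM in YUMM2.1 and 1.29 in CT26. The 7 myeloid markers summed to 1.57 to 25.8 CPM in YUMM2.1 and 27.9 to 82.8 in CT26, where Cd14 made up 92.9% of them and Adgre1 and Itgam were at 0; the median was 42.1 CPM in CT26 control samples and 46.5 in IFNγ samples.

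Counts were unevenly spread over the family. Slfn5 held 137883 counts over the 90 samples, 95.2% of all counts of the 7 genes, followed by Slfn9 with 5909, Slfn8 with 508, Slfn2 with 361 and Slfn3 with 207. Slfn4 had 5 counts and Slfn1 had 1 count in 90 samples. These are shares of counts and not of transcripts. After a filter on low counts, 2 members were tested in YUMM2.1, Slfn5 and Slfn9, among 9589 genes, and 5 in CT26, Slfn2, Slfn3, Slfn5, Slfn8 and Slfn9, among 8516 genes. In CT26, Slfn2 and Slfn8 passed this filter only through IFNγ samples, as their controls reached at most 1.88 and 3.79 CPM. Of the other Schlafen rows, the pseudogene Slfn10-ps had 45 counts, Slfnl1 had 4, and Slfn14 and the antisense gene Slfn5os, which overlaps Slfn5, were at 0. Near-identical stretches limit how reads can be told apart: Slfn8 and Slfn9 shared 792 31-base words, 19.1% of those of Slfn8 and 13.28% of those of Slfn9, but 0 with each other in the last 500 bases of their longest transcripts. Slfn10-ps shared 776 words with Slfn8 and 851 with Slfn9, and Slfn3 and Slfn4 shared 516. Between the last 500 bases of their longest transcripts, these 3 pairs shared 14, 0 and 0 words. Of 470 such end words each, 53 of Slfn8, 29 of Slfn9, 219 of Slfn3 and 0 of Slfn4 were shared with any other gene. The counts do not say which stretch the reads came from, so small counts of these genes are uncertain.

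Slfn9, a long Schlafen gene, was higher with IFNγ in both lines when all groups were compared at once. In YUMM2.1, the 12 control samples had 18.1 to 30.4 CPM of Slfn9 with a median of 24.3, and the 33 IFNγ samples 16.7 to 61.8 with a median of 35.7. In CT26, the control samples had 28.5 to 60.0 CPM with a median of 38.7, and the IFNγ samples 37.0 to 156 with a median of 74.9. The groups overlapped in both lines, with 20 of 33 IFNγ samples above every control sample in YUMM2.1 and 25 of 33 in CT26. The log2 fold change of all 11 IFNγ groups against the 4 control groups was 0.48 (SE 0.11) for YUMM2.1 and, for CT26, 0.76 (SE 0.12) (adjusted p = 0.00201 and 4.73e-06 from the quasi-likelihood test of edgeR, adjusted after Benjamini and Hochberg over all genes tested). In such bulk RNA, more cells with the transcript and more transcript per cell cannot be told apart. This comparison was added after values had been seen. It called 1 of the 2 tested members in YUMM2.1 and 3 of the 5 in CT26, where it called 11.5% and 14.2% of all genes tested. Slfn2 and Slfn8 are among those 3 and entered the test only through IFNγ samples, so that count is not independent of the response. Leaving out each sample in turn kept Slfn9 between 0.45 and 0.51 in YUMM2.1 and between 0.72 and 0.82 in CT26, called each time.

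Within the time course, Slfn9 was called in 1 single comparison. In CT26 control cells at 3 weeks it had 34.9, 48.3 and 60.0 CPM, and after 3 weeks of IFNγ 67.6, 149 and 156 CPM. The IFNγ samples all lay above the controls, with replicate 1 nearest to them. The log2 fold change was 1.06 (SE 0.28, adjusted p = 0.0133, edgeR), in a comparison that called 2 of 5 tested members and 7.23% of all genes. The call was lost without replicate 1 of the control (0.90, adjusted p = 0.0817), replicate 2 of the IFNγ group (0.84, adjusted p = 0.211) or replicate 3 (0.89, adjusted p = 0.0543). In YUMM2.1 the same comparison gave 22.1, 30.4 and 24.3 CPM in controls and 43.9, 26.8 and 51.0 CPM with IFNγ, overlapping groups with a log2 fold change of 0.50 (SE 0.27, adjusted p = 0.522, edgeR). Here 0 of 2 members and 0.97% of all genes were called. At 1 and 2 weeks Slfn9 in YUMM2.1 gave 0.42 (SE 0.26) and 0.51 (SE 0.28), with 0 of 2 members called each time against 0.73% and 1.12% of all genes (adjusted p = 0.898 and 0.763, edgeR); over the 3 weekly comparisons, 1 member test, that of Slfn5 at 2 weeks, had an unadjusted p below 0.05 and DESeq2 called 0.

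In naive cells Slfn9 was highest at 24 h. In YUMM2.1, 0-week controls had 24.6, 24.6 and 22.3 CPM, cells after 2 h 23.6, 22.4 and 26.2 CPM, and cells after 24 h 61.8, 40.1 and 26.9 CPM. All 3 samples at 24 h lay above the controls, and those at 2 h overlapped them. In CT26, controls had 35.7, 50.2 and 54.8 CPM, cells after 2 h 50.3, 51.5 and 56.3 CPM, and cells after 24 h 102, 95.4 and 64.3 CPM, again with the groups apart at 24 h only. The log2 fold change at 24 h was 0.75 (SE 0.27) in YUMM2.1 and 0.86 (SE 0.29) in CT26, and neither passed the correction (adjusted p = 0.395 and 0.142, edgeR). In CT26 it passed without replicate 3 of the 24 h group (1.11, adjusted p = 0.0423), with only the groups compared in the fit (0.85, adjusted p = 0.0456) and without the filter on low counts (0.81, adjusted p = 0.00814). These 24 h comparisons called 0 of 2 members and 0.886% of all genes in YUMM2.1, and 1 of 5 and 2.04% in CT26. Without the filter, the CT26 comparison called 243 of 24691 genes. At 2 h, 0 of 2 and 0 of 5 members were called, against 0.24% and 0.235% of all genes, with 0 at an unadjusted p below 0.05 and 0 by DESeq2.

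**Figure D2:**
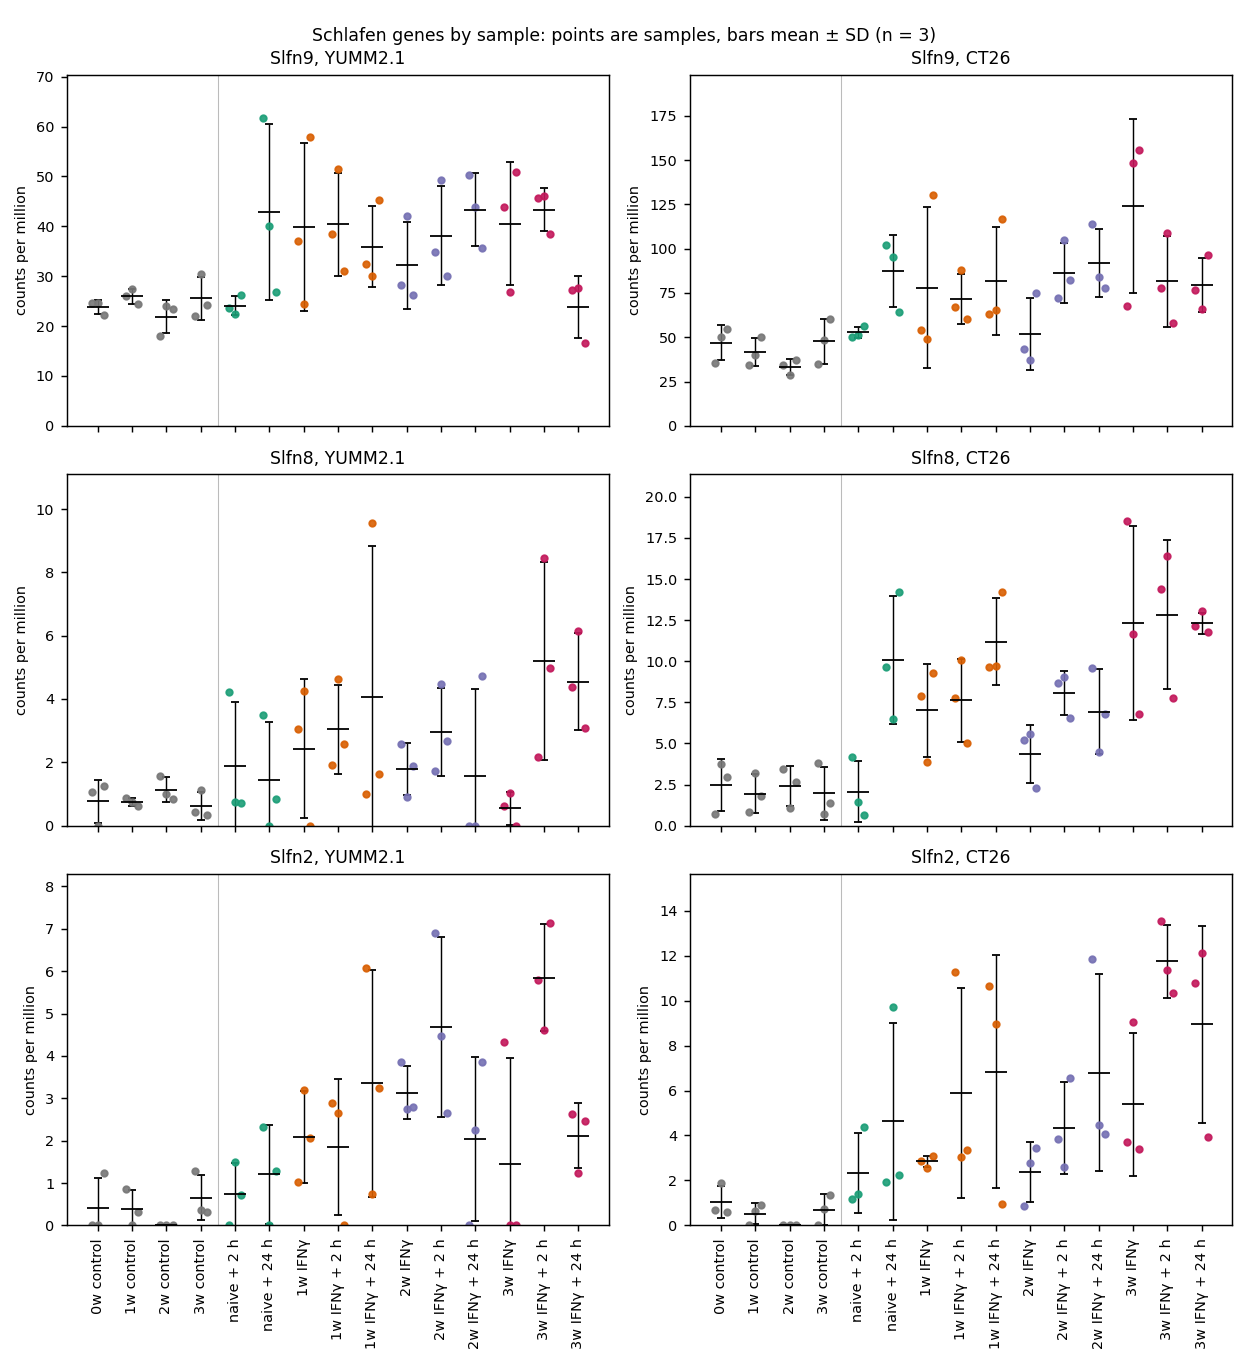
Levels (CPM) of Slfn9, Slfn8 and Slfn2 in every sample of YUMM2.1 (left) and CT26 (right) over the 15 groups, with control cultures left of the vertical line; points are samples, black bars the mean and SD of 3, and SD bars are clipped at 0. Slfn9 in CT26 reaches 156 CPM at 3 weeks of IFNγ against at most 60.0 in controls, and Slfn2 is at 0 in all 3 control samples of 2 weeks in both lines. The vertical scale differs between panels.

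Slfn8, the long gene next to Slfn9, was higher with IFNγ in CT26. The 12 CT26 control samples had 0.686 to 3.79 CPM with a median of 2.24, and the 33 IFNγ samples 0.625 to 18.5 with a median of 8.65; 30 of 33 lay above every control sample. The log2 fold change of all IFNγ groups against the controls was 1.69 (SE 0.24, adjusted p = 4.42e-07, edgeR), between 1.60 and 1.87 when each sample was left out. Naive cells had 1, 6 and 5 counts in the 0-week controls (0.686, 3.76 and 2.98 CPM) and 5, 4 and 19 counts after 24 h (9.63, 6.47 and 14.2 CPM). The groups did not overlap, and the log2 fold change of 2.07 (SE 0.52) was called (adjusted p = 0.0172, edgeR). This call was lost without control replicate 1 (1.67, adjusted p = 0.13), control replicate 3 (2.20, adjusted p = 0.055) or 24 h replicate 3 (1.66, adjusted p = 0.189). With only the groups compared in the fit, Slfn9 was called in place of Slfn8. Slfn8 had passed the filter on low counts in CT26 only through IFNγ samples.

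After 3 weeks of IFNγ, CT26 cells had 18.5, 11.6 and 6.78 CPM of Slfn8 (20, 9 and 2 counts), and the 3-week controls had 3.79, 0.71 and 1.37 CPM (5, 1 and 3 counts). All IFNγ samples lay above the controls, and the log2 fold change was 2.63 (SE 0.54, adjusted p = 0.000968, edgeR), between 2.14 and 3.33 when each sample was left out. Slfn8 had entered this test only through IFNγ samples, so the call and its range are not independent of the response. With only the groups compared in the fit, Slfn8 fell below the filter on low counts and was not tested. At 1 and 2 weeks the log2 fold changes against the matched controls were 1.62 (SE 0.59) and 0.61 (SE 0.61), not called (adjusted p = 0.402 and 0.835, edgeR). The 1-week comparison called 0 of 5 members and 0.728% of all genes, and the 2-week comparison 0 of 5 and 1.67%. At an unadjusted p below 0.05 there was 1 member in each, Slfn8 at 1 week and Slfn2 at 2 weeks, and DESeq2 called 0 in both.

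In YUMM2.1, Slfn8 stayed just under the filter on low counts. It had 19 counts over 12 control samples (0.793 CPM pooled) and 134 counts over 33 IFNγ samples (2.92 CPM pooled), a ratio of 3.68 with a counting interval of 2.26 to 6.30 (95%, exact, counting error only). IFNγ samples ranged from 0 to 9.55 CPM and controls from 0 to 1.57, and 21 of 33 IFNγ samples lay above every control. Without the filter, the log2 fold change was 1.42 (SE 0.41, adjusted p = 0.0212, edgeR). That fit tested 27231 genes, and over the alternative settings the comparison called 1025 to 1095 genes. When each sample was left out in turn, Slfn8 entered the test in 43 of 45 fits, through IFNγ samples only, and was called in 42. It did not enter without 24 h replicate 2 at 1 week or 2 h replicate 2 at 3 weeks. Replicate 3 at 24 h of 2 weeks held all 11 counts of its group. Without it that group stood at 0, and Slfn8 was tested but not called. The 3-week group without rechallenge stood lowest, with 1, 1 and 0 counts, against 3, 11 and 7 after 2 h of rechallenge and 5, 10 and 5 after 24 h. Without the filter, the 2 h rechallenge at 3 weeks gave a log2 fold change of 2.70 (SE 1.06), which was not called (adjusted p = 0.464, edgeR). At 1 and 2 weeks the 2 h groups had 13 and 11 counts, against 14 and 9 without rechallenge.

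Slfn2, a short member, rose from near the limit of detection in CT26. Over the 12 control samples it had 12 counts (0.663 CPM pooled), with 5 samples at 0, and over the 33 IFNγ samples 212 counts (5.51 CPM pooled), with none at 0. The control samples ranged from 0 to 1.88 CPM and the IFNγ samples from 0.867 to 13.5 with a median of 3.85, and 29 of 33 lay above every control. The pooled ratio was 8.32 with a counting interval of 4.66 to 16.4. The comparison of all IFNγ groups with the controls called Slfn2 (adjusted p = 1.24e-06, edgeR). Slfn2 had entered this test only through IFNγ samples, so the call is not independent of the response. Its fitted fold change is not given because the 2-week controls were at 0 in all 3 samples. In YUMM2.1, 10 counts in controls and 127 in IFNγ samples gave a ratio of 6.62 with a counting interval of 3.48 to 14.1, and 23 of 33 IFNγ samples lay above every control. Slfn2 did not pass the filter there, and without it the comparison called the gene (adjusted p = 4.95e-05, edgeR).

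The single comparisons of Slfn2 rested on few counts. In CT26 at 3 weeks, controls had 0, 1 and 3 counts and IFNγ samples 4, 7 and 1, a log2 fold change of 2.47 (SE 0.93) that did not pass the correction (adjusted p = 0.0986, edgeR). With 2 h of rechallenge at 3 weeks, the counts were 16, 9 and 8 (13.5, 11.4 and 10.3 CPM), the highest group mean of the gene at 11.7 ± 1.63 CPM (SD, n = 3). All 3 of these samples lay above the 3 without rechallenge, which had 3.70, 9.04 and 3.39 CPM, but the log2 fold change of 1.09 (SE 0.69) was not called (adjusted p = 0.827, edgeR). At 2 weeks, the controls of both lines had 0 counts, and a floor of 3 counts over the control group stood in their place. The 10 counts in IFNγ samples of CT26 gave a pooled level 2.96 times that floor, and the 15 counts in YUMM2.1 3.61 times. These 2 values leave out the counting error of the IFNγ samples and are not lower limits of the fold change. At 1 week the ratios were 4.62 in CT26 (7 counts against 3, counting interval 1.05 to 27.7) and 5.63 in YUMM2.1 (9 counts against 3, counting interval 1.40 to 32.3). At 3 weeks in YUMM2.1, the IFNγ samples had 7, 0 and 0 counts and the controls 3, 1 and 1, so the counts with IFNγ came from 1 sample. Without the filter, the log2 fold change there was 1.54 (SE 1.00, adjusted p = 0.954, edgeR).

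**Figure D3:**
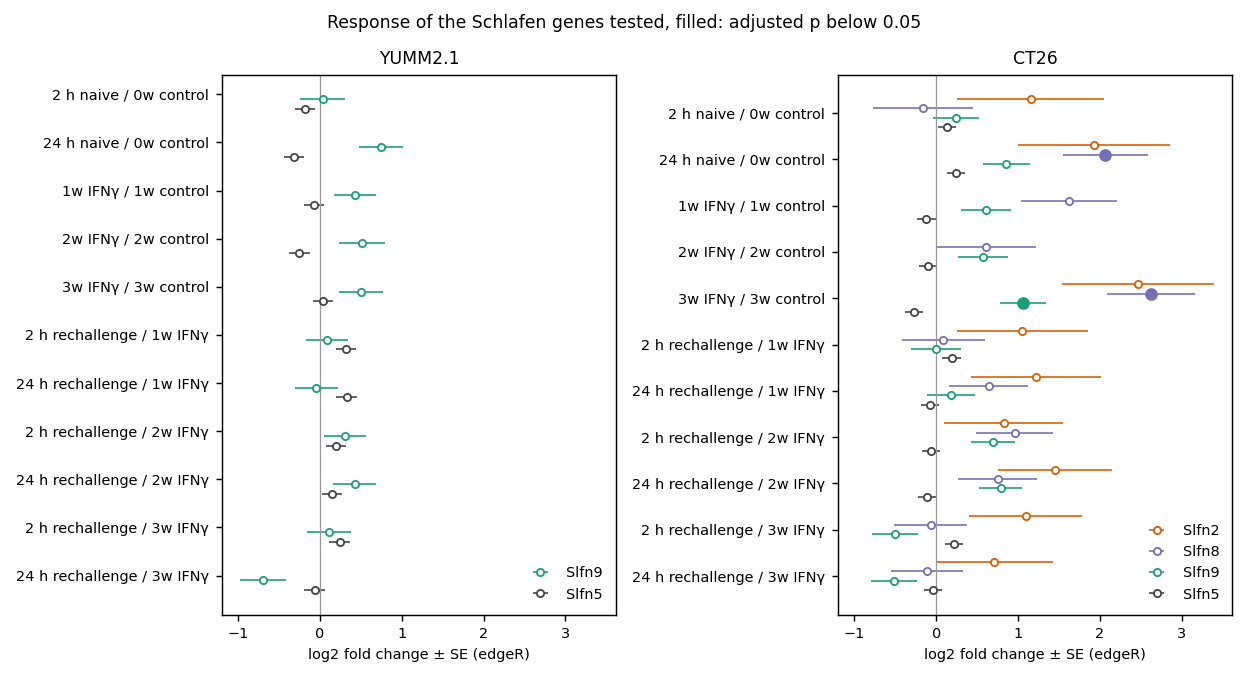
Log2 fold change with its standard error from edgeR for each tested Schlafen gene (Slfn3 is left out) in the naive, weekly and rechallenge comparisons of YUMM2.1 (left) and CT26 (right); filled points passed an adjusted p of 0.05, and Slfn2 is not drawn where its control group held 3 or fewer counts. The filled points, all in CT26, are Slfn8 after 24 h in naive cells (2.07) and Slfn8 and Slfn9 at 3 weeks of IFNγ (2.63 and 1.06). Slfn8 and Slfn2 entered the CT26 tests only through IFNγ samples.

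Slfn5, the long gene at the end of the cluster, was counted at a high and even level. It ranged from 754 to 1588 CPM over the 90 samples, with a median of 1042 CPM in YUMM2.1 and 1162 in CT26. Its coefficient of variation was 13.5%, and 53 of the 266 genes within 2-fold of its mean level had a lower one, with a median of 24.6% among them. The 15 group means ran from 869 CPM in the 3-week control to 1338 in the 0-week control in YUMM2.1, a ratio of 1.54, and over a ratio of 1.22 in CT26. In YUMM2.1 the control samples ranged from 823 to 1588 CPM and the IFNγ samples from 754 to 1376, and in CT26 from 968 to 1347 and from 992 to 1415. The groups overlapped almost completely, and all IFNγ groups against the controls gave log2 fold changes of -0.05 (SE 0.051) and -0.07 (SE 0.046), not called in either line (adjusted p = 0.596 and 0.318, edgeR). With library totals as the only scaling these values were 0.01 and 0.02, so no direction is given.

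Slfn5 was called in 1 planned comparison, and it was one of control cultures. YUMM2.1 controls at 0 weeks had 1127, 1588 and 1299 CPM and those at 3 weeks 918, 866 and 823 CPM, groups that did not overlap. The log2 fold change of 3 weeks against 0 weeks was -0.58 (SE 0.12, adjusted p = 0.0112, edgeR), in a comparison that called 1 of 2 members and 0.521% of all genes. It was lost without replicate 2 of the 0-week control (-0.49, adjusted p = 0.141) or replicate 3 of the 3-week control (-0.57, adjusted p = 0.0806). In CT26 the same comparison gave 0.24 (SE 0.11, adjusted p = 0.387, edgeR), with 0 of 5 members and 0.916% of all genes called. Over weeks 1 to 3 together, 2 h of rechallenge in YUMM2.1 gave Slfn5 a log2 fold change of 0.25 (SE 0.072, adjusted p = 0.0382, edgeR) in a comparison added after values had been seen, which called 1 of 2 members and 2.82% of all genes. That call was lost in 12 of the 18 fits that left out a sample, where the value ranged from 0.20 to 0.28 and the adjusted p from 0.0214 to 0.118. In CT26 it was 0.11 (SE 0.065, adjusted p = 0.517, edgeR), with 0 of 5 members and 0.986% of all genes called.

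The level of Slfn5 moved with depth. Over the 45 YUMM2.1 samples, its CPM had a Pearson r of -0.51 with the total count (Spearman -0.57, permutation p = 0.00032 and 0.00014), and -0.45 without the 2 samples farthest from the median total. In CT26 r was -0.25 (Spearman -0.29, permutation p = 0.096 and 0.0503) and -0.40 without those 2. After subtraction of group means r was -0.61 and -0.46. For Slfn9 the values were -0.47 in YUMM2.1 (Spearman -0.43, permutation p = 0.00126 and 0.00405) and -0.43 in CT26 (Spearman -0.29, permutation p = 0.00376 and 0.0557), and -0.44 and -0.24 without the 2 farthest samples. After subtraction of group means they were -0.50 and -0.27. Over these 4 relations, the adjusted p for r was 0.00128 and 0.096 for Slfn5 and 0.00252 and 0.00501 for Slfn9, and for Spearman 0.00056 and 0.0557 for Slfn5 and 0.0081 and 0.0557 for Slfn9. The permutations took all samples of a line as exchangeable and ignored their groups, so these p-values do not account for the design. The values after subtraction of group means have no p-value. The total is also the denominator of a CPM, and the part of depth in the differences above was not tested. The YUMM2.1 controls of 0 weeks had totals of 1867497, 812316 and 1613228 counts and those of 3 weeks 2354083, 2663541 and 3047691, so the called difference in Slfn5 between them ran beside a difference in depth. The same holds for the calls of Slfn9 and Slfn8 in CT26 at 3 weeks, where the IFNγ samples had totals of 1080409, 773942 and 295157 counts and the controls 1318011, 1409042 and 2183005. It holds too for the Slfn8 call in CT26 naive cells at 24 h. Totals there were 519097, 618598 and 1337965 after 24 h, and 1458270, 1593990 and 1677329 in controls. The calls from all IFNγ groups against the controls likewise ran beside lower totals in IFNγ samples in both lines. The transcripts of Slfn5 contain a run of 22 A bases, and 311 of their 6321 words of 31 bases (4.92%) are shared with 2285 other genes. Of the 470 words in the last 500 bases of its longest transcript, 0 are shared. The counts do not say which stretch the reads came from.

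**Figure D4:**
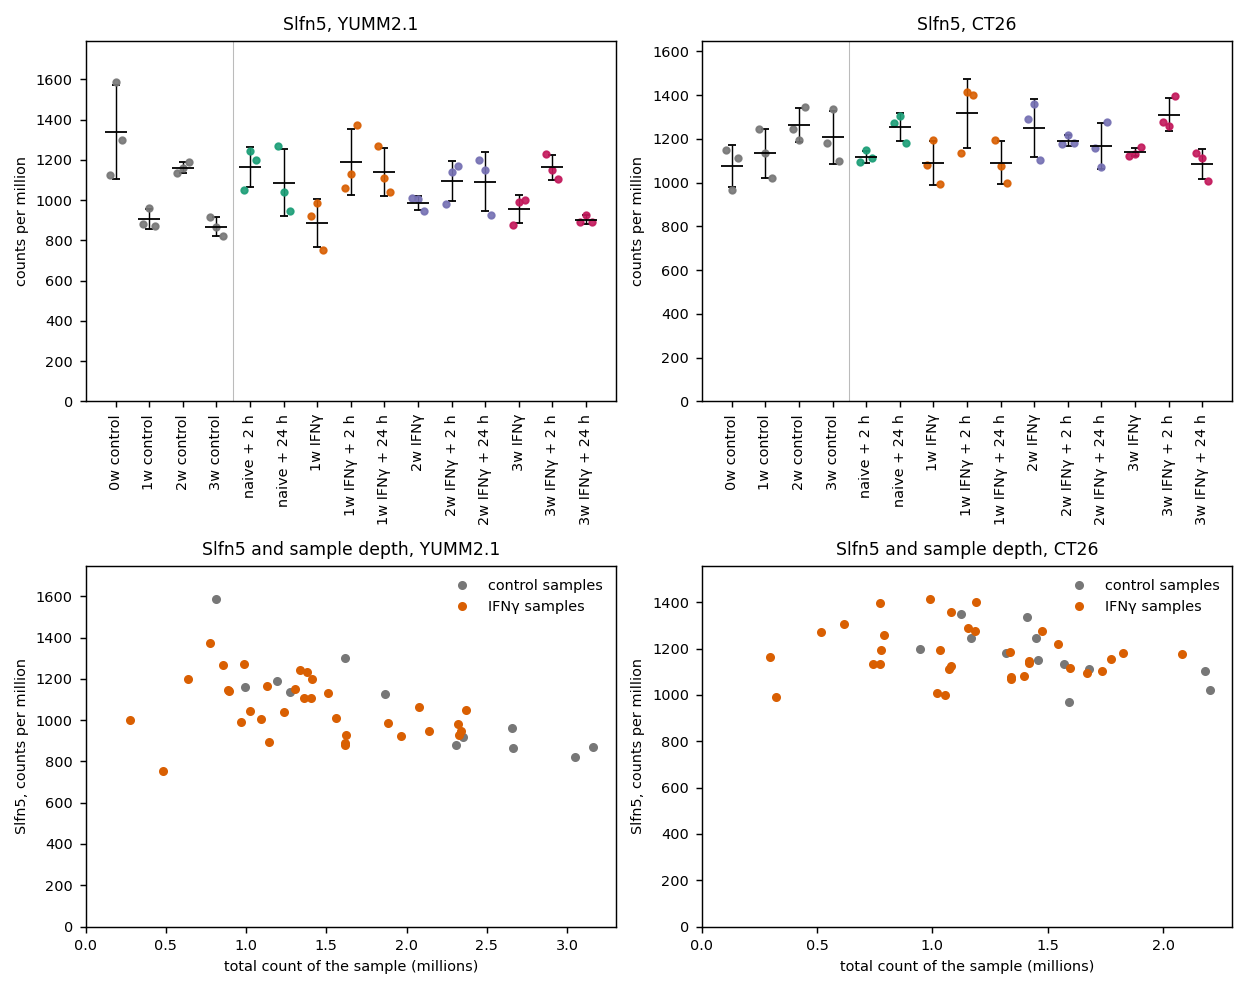
Slfn5 level (CPM) by group (top; points are samples, bars mean and SD of 3) and against the total count of each sample (bottom, in units of 1e6 counts) in YUMM2.1 (left) and CT26 (right), with control samples in grey and IFNγ samples in orange in the bottom panels. All samples lie between 754 and 1588 CPM, control and IFNγ samples overlap, and the level is lower in deeper YUMM2.1 samples.

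Slfn3, an intermediate member, was detected mainly in CT26, with 180 counts there and 27 in YUMM2.1. In CT26 it had 48 counts over control samples (2.65 CPM pooled) and 132 over IFNγ samples (3.43 CPM pooled), a ratio of 1.30 with a counting interval of 0.924 to 1.84. Control samples ranged from 0.686 to 7.71 CPM and IFNγ samples from 0 to 12.8, so the groups overlapped widely, and the log2 fold change of 0.45 (SE 0.34) was not called (adjusted p = 0.426, edgeR). In YUMM2.1 the ratio was 2.29 on 22 and 5 counts, with a counting interval of 0.848 to 7.75. Of 470 words in the last 500 bases of its longest transcript, 219 are shared with other genes, so even these counts are uncertain. Slfn4 had 3 counts in YUMM2.1 and 2 in CT26, all in IFNγ samples, and Slfn1 had 1 count in 1 IFNγ sample of CT26. Each line had 33 IFNγ and 12 control samples, so these few counts do not show a response. For a gene with no count over the controls, the floor of 3 counts is 0.125 CPM for YUMM2.1 and 0.166 for CT26. Lower levels in the controls could have gone uncounted at this depth.

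Rechallenge asked whether cells kept in IFNγ responded to a fresh dose. Against cells of the same week without rechallenge, 0 of 12 member tests in YUMM2.1 and 0 of 30 in CT26 were called by edgeR over the 6 comparisons of each line, and 0 by DESeq2. At an unadjusted p below 0.05 there were 3 and 4. At 2 h, the background was 0.615%, 0.428% and 1.08% of genes called at 1, 2 and 3 weeks in YUMM2.1; the CT26 values were 0.376%, 0.305% and 0.0117%. At 24 h it was 1.42%, 0.615% and 0% for YUMM2.1, against 1.32%, 0.658% and 0% for CT26. The CT26 shares at 3 weeks stand for 1 gene at 2 h, which became 2 to 4 when a sample other than 2 h replicate 1 was left out, and 0 genes at 24 h, which became 1 without replicate 1 or 2 of the group without rechallenge. With weeks 1 to 3 together, 24 h of rechallenge called 0 of 2 and 0 of 5 members against 1.06% and 1.34% of genes; at an unadjusted p below 0.05 there were 0 and 1, the latter Slfn2, and DESeq2 called 0 in both.

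Slfn9 gave different values by week. In YUMM2.1 at 3 weeks it had 43.9, 26.8 and 51.0 CPM without rechallenge, 45.6, 46.0 and 38.5 after 2 h, and 27.2, 27.7 and 16.7 after 24 h. The 24 h group overlapped the group without rechallenge, and 1 of its samples lay below every control sample, with a log2 fold change of -0.70 (SE 0.28, adjusted p = 1, edgeR). In CT26 at 2 weeks it had 43.4, 37.0 and 74.9 CPM without rechallenge and 114, 84.1 and 77.9 after 24 h, groups that did not overlap, with a log2 fold change of 0.79 (SE 0.27, adjusted p = 0.315, edgeR). At 3 weeks in CT26 the 24 h value was -0.51 (SE 0.28, adjusted p = 0.938, edgeR), with 76.9, 66.1 and 96.1 CPM against 67.6, 149 and 156.

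The difference between the 24 h response after 3 weeks and that of naive cells was tested directly. For Slfn9 it was -1.45 (SE 0.39, adjusted p = 0.0845) in YUMM2.1 and -1.37 (SE 0.40, adjusted p = 0.107) in CT26 by edgeR, and for Slfn8 in CT26 -2.18 (SE 0.69, adjusted p = 0.165). These comparisons called 0 of 2 and 0 of 5 members, against 0.615% and 1.2% of all genes; at an unadjusted p below 0.05 there were 1 and 2. DESeq2 called 0 members in YUMM2.1 and 1, Slfn9, in CT26 (-1.48, adjusted p = 0.0367). Slfn9 was called by edgeR in YUMM2.1 without replicate 3 of the naive 24 h group (-1.73, adjusted p = 0.00979) or replicate 2 of the 3-week group without rechallenge (-1.69, adjusted p = 0.0248), and in CT26 without replicate 3 of the naive 24 h group (-1.63, adjusted p = 0.0343) or replicate 1 of the 3-week group without rechallenge (-1.72, adjusted p = 0.00975). For the 2 h responses, 0 of 2 and 0 of 5 members were called by either tool, against 0.115% and 0.211% of genes, with 1 and 0 at an unadjusted p below 0.05.

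Between the lines, Slfn9 was lower in YUMM2.1 controls at 0 weeks, with 24.6, 24.6 and 22.3 CPM against 35.7, 50.2 and 54.8 in CT26. The groups did not overlap, and in a fit of both lines together the log2 fold change of YUMM2.1 against CT26 was -1.14 (SE 0.29, adjusted p = 0.000589, edgeR), where the median of all genes was 0.08. This comparison called 1 of 5 members and 46% of all 10339 genes, so that a call was common. The 24 h naive response differed between lines by -0.16 (SE 0.41) for Slfn9 and by -0.58 (SE 0.18) for Slfn5, and the 3-week response by -0.63 (SE 0.39) for Slfn9 and -2.59 (SE 1.39) for Slfn8, none called (adjusted p = 0.989, 0.382, 0.863 and 0.807, edgeR). These comparisons called 0 of 5 members each, against 0.087% and 0.106% of genes, with 1 and 0 members at an unadjusted p below 0.05 and 0 called by DESeq2. These shares stand for 9 and 11 genes, and leaving out 1 sample gave as few as 3 genes at 24 h (moved by over 1.5 times without control replicate 2 or 3 of CT26, or control or 24 h replicate 1 or 3 of YUMM2.1) and 6 to 17 at 3 weeks (without control replicate 2 or 3 or IFNγ replicate 1 of CT26, or control replicate 1 or 2 of YUMM2.1). Over all IFNγ groups the difference in response was -0.32 (SE 0.17, adjusted p = 0.622, edgeR) for Slfn9, and 0 of 5 members and 0.87% of genes were called, with 0 at an unadjusted p below 0.05 and 0 by DESeq2. Slfn2 and Slfn3 had no usable error in that last comparison. Since Slfn8 did not pass the filter in YUMM2.1 alone, its calls in CT26 do not show that the lines differed.

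Some genes of the interferon pathway were higher with IFNγ in both lines. With all IFNγ groups against the controls, 4 of 10 tested IFN receptor, JAK and STAT genes were higher in YUMM2.1 and 3 of 10 in CT26, and 0 were lower in either. Of all genes tested, 5.38% were called higher and 6.16% lower in YUMM2.1, and 6.29% higher and 7.87% lower in CT26, which is also the background of the other lists in this comparison. Stat2, a part of the complex that binds the ISRE, had a log2 fold change of 2.12 (SE 0.26) in YUMM2.1 and 2.71 (SE 0.23) in CT26, and Stat3 had 1.32 (SE 0.17) and 1.13 (SE 0.28), each called in both lines by edgeR. Of the tested interferon regulatory factors, 3 of 4 and 2 of 5 were higher, with Irf1 at 3.03 (SE 0.093) and 2.84 (SE 0.10); Irf9 was called in YUMM2.1 at 0.36 (SE 0.068) but not in CT26, at 0.09 (SE 0.055). Of the feedback inhibitors, 3 of 5 and 2 of 5 were higher, with Socs1, which blocks JAK kinases, at 0.79 (SE 0.18) and 1.85 (SE 0.42). The 8 interferon ligand genes were not tested in either line because of low counts.

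Other interferon effectors that act on RNA gave 4 higher and 1 lower of 7 tested in YUMM2.1 and 9 higher and 1 lower of 11 in CT26, beside 5.38% higher and 6.16% lower of all genes in YUMM2.1 and 6.29% and 7.87% in CT26. Their median log2 fold change was 0.56 in YUMM2.1 and 1.91 in CT26, against 0.01 and 0.00 over all genes. The lower gene was Samhd1, a nucleotide hydrolase, in both lines, at -0.31 (SE 0.055) and -0.22 (SE 0.045); it was named after its values had been seen. After 24 h in naive cells, 2 of 7 of these effectors were higher in YUMM2.1, Ifit3 and Ifit1, which bind RNA, and 8 of 11 in CT26, where 0.855% and 1.77% of all genes were called higher. At 3 weeks, 1 was higher and 1 lower in YUMM2.1, and 9 higher and 1 lower in CT26. The shares of all genes at 3 weeks were 0.72% higher and 0.25% lower in YUMM2.1, and 3.44% higher and 3.79% lower in CT26. The medians of the list were 0.60 and 2.41 at 24 h in naive cells, and 0.49 and 3.01 at 3 weeks.

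The genes whose pattern was most like that of a member were found by Pearson's r over the 15 group means of a line, as a description over points that share libraries and depth. For Slfn8 in CT26 they were Ddx60 (0.98), Samd9l (0.98) and Irf7 (0.97), and for Slfn2 in CT26 9530082P21Rik (0.97), Gbp6 (0.96) and Parp11 (0.96). For Slfn9 they were Gm4070 (0.91), Rnf213 (0.91) and Oasl2 (0.91) in CT26, and Eif2ak2 (0.92), Uaca (0.90) and Tcirg1 (0.85) in YUMM2.1. Irf7 is an interferon regulatory factor, Gbp6 a guanylate-binding protein and Eif2ak2 the RNA-activated kinase PKR. Slfn5 was most like Lhfpl4 (0.93), Cflar (0.93) and Mrps26 (0.93) in YUMM2.1 and Usp19 (0.92), Gm49359 (0.89) and Lifr (0.85) in CT26, with no gene shared between the 2 lines. For Slfn3 in CT26 the values were lower, with Sptlc1 (0.81), Cep295 (0.80) and Mrpl21 (0.79).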

How the data were processed

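Counts of 90 samples were used, 45 per line, as the authors deposited them: whole-number counts per gene, not normalised, with 0 columns left unused. The authors quantified reads with Salmon 0.13.1 on mm10 (submitters' processing notes) and summarised them to genes with tximport (the study's methods); the annotation release, and whether molecular identifiers were used, were not given in the sources used here. The study discarded some samples it does not name, and all were kept here. Of 53697 gene rows, 53668 matched a symbol.

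Genes were kept by filterByExpr at a minimum count of 10, normalised by TMM and tested with the quasi-likelihood test of edgeR 4.0.16 in R 4.3.3 (limma 3.58.1), with the 15 groups of a line in 1 fit and both lines in 1 fit for the comparisons between lines. P-values were adjusted after Benjamini and Hochberg over all genes of a comparison and called at 0.05. CPM were computed from total counts. Genes under the filter were given as pooled counts with exact 95% intervals, which cover counting error only, and a floor of 3 counts stood for 0. Depth relations used 100000 permutations of the samples of a line, without regard to group. Alternatives were DESeq2 1.42.0, other scalings, no filter, only the groups compared, a replicate block, no samples under 25% of the median total, and each sample left out. All members were named, with the 3 genes most correlated with each tested member over group means (log2 CPM, prior count 2), and from the pathway lists Stat2, Stat3, Irf1, Irf9, Socs1 and up to 3 called genes of a list; some named genes are not reported here. Members, lists and comparisons were chosen with earlier results of these data known. Promoter sequences were from RefSeq on GRCm38.p6.

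Tested on simulated data, the 3-week comparison recovered 93.5% (YUMM2.1, 9325 genes) and 85.5% (CT26, 8068 genes) of 200 genes given a 2-unit log2 change, with 9 and 14 false calls. The 200 genes were drawn at random from those that passed the filter and were changed in every IFNγ group. These rates do not apply to members with a few counts or with smaller changes.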

Additional observations from a re-analysis of the deposited data

How the results depend on the processing

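Over 38 comparisons, the count of members called was unchanged in 252 of 263 alternatives and in 319 of 384 fits that left out a sample; no called member changed direction, while 93 values that were not called changed sign. Without the filter on low counts, 3 members in place of 1 were called in YUMM2.1 for all IFNγ groups against controls. CT26 had 2 in place of 1 in naive cells at 24 h (243 of 24691 genes called). It had 1 in place of 0 for both rechallenges at 2 weeks and the difference in 24 h responses (142 genes). DESeq2 also gave 1 for that difference. The YUMM2.1 2 h rechallenge over weeks had 0 in place of 1. With only the groups compared in the fit, CT26 at 3 weeks of IFNγ had 1 member in place of 2, as Slfn8 then fell below the filter, CT26 naive cells at 24 h kept a count of 1 but with Slfn9 called in place of Slfn8, and the YUMM2.1 2 h rechallenge over weeks had 0. Without samples under 25% of the median total, YUMM2.1 had 2 members for all IFNγ groups against controls. With library totals as the only scaling, 2 members differed between lines at 0 weeks, where the median of all genes moved by 0.16 (CT26 at 3 weeks by 0.20); with relative log expression factors the median moved by 0.10 in the 3-week difference between lines. Leaving out each sample gave 0 to 1 members for the difference in 24 h responses in both lines, the YUMM2.1 controls, the YUMM2.1 2 h rechallenge over weeks and CT26 naive cells at 24 h, 1 to 2 for CT26 at 3 weeks, and 1 to 2 for YUMM2.1 IFNγ groups against controls. Beyond the filter and the scaling themselves, the cause of these changes was not tested. The replicate block kept the count of members in 38 of 38 comparisons. Deviations of same-numbered samples had median r 0.00 (-0.26 to 0.37) in YUMM2.1 and 0.01 (-0.32 to 0.38) in CT26 over 315 pairs each. A median near 0 does not exclude paired samples. Leaving out each sample was not run for the difference between lines over all groups.

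Counts of all genes called moved by over 1.5 times without the filter, from 23 to 55 and 20 to 47 (naive 2 h, YUMM2.1 and CT26), 70 to 121 and 62 to 120 (1 week), 93 to 186 (YUMM2.1, 3 weeks), 59 to 136, 41 to 81 and 104 to 169 (YUMM2.1, 2 h rechallenge at 1, 2 and 3 weeks), 32 to 82, 26 to 83 and 1 to 47 (CT26, the same), 56 to 98 (CT26, 24 h rechallenge at 2 weeks), 0 to 27 and 0 to 37 (24 h rechallenge at 3 weeks, both lines), 102 to 161 (YUMM2.1, 24 h over weeks), 84 to 148 (CT26, 2 h over weeks), 11 to 49 and 18 to 54 (difference in 2 h responses), 59 to 111 (YUMM2.1, difference in 24 h responses), and 9 to 26 and 11 to 40 (naive 24 h and 3-week differences between lines). With only the groups compared they moved from 616 to 282 (CT26, 3 weeks), 50 to 120 and 78 to 220 (controls of 3 against 0 weeks), 59 to 39 and 104 to 38 (YUMM2.1, 2 h rechallenge at 1 and 3 weeks), 136 to 90 and 112 to 51 (24 h at 1 week, both lines), 1 to 0 (CT26, 2 h at 3 weeks), 270 to 156 and 84 to 45 (2 h over weeks, both lines) and 9 to 2 (naive 24 h between lines), and with DESeq2 from 50 to 109 and 78 to 126 (controls), 11 to 21 (YUMM2.1, difference in 2 h responses), 0 to 1 (YUMM2.1, 24 h rechallenge at 3 weeks), 1 to 11 (CT26, 2 h at 3 weeks), 9 to 14 and 11 to 20 (naive 24 h and 3-week differences between lines) and 90 to 146 (IFNγ groups against controls between lines). With library totals they moved from 50 to 107 (YUMM2.1 controls) and 11 to 20 (YUMM2.1, difference in 2 h responses), and without samples under 25% of the median total from 1 to 2 (CT26, 2 h at 3 weeks). Leaving out 1 sample moved counts as much in the following and those given with their shares. In YUMM2.1, 93 became 59 (3 weeks, without control replicate 2), 41 became 25 (2 h at 2 weeks, without 2 h replicate 1), 59 became 27 (24 h at 2 weeks, without 0 h replicate 3), 104 fell to as low as 60 (2 h at 3 weeks, without 0 h replicate 1 or 2) and 50 to as low as 14 (controls, without replicate 2 or 3 of either week). In CT26, 174 became 283 (naive 24 h, without 24 h replicate 3), 616 fell to as low as 259 (3 weeks, without control replicate 3 or IFNγ replicate 2), 56 to 31 (24 h at 2 weeks, without 0 h replicate 2 or 24 h replicate 1) and 78 to 31 (controls, any sample). Depth limits Slfn1, Slfn4 and, in YUMM2.1, Slfn2, Slfn3 and Slfn8, which were known by a few counts per sample.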
